A study of Mus musculus with 6 samples.

Results

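The transcripts described here are 10 genes of the mammalian circadian clock and its DEC repressors, measured in embryonic mouse hearts with and without a functional *Smyd1* gene. They are the activators *Clock* and *Arntl*, the period and cryptochrome genes *Per1*, *Per2* and *Cry1*, the nuclear receptors *Nr1d1*, *Nr1d2* and *Rora*, and the DEC genes *Bhlhe40* and *Bhlhe41*. They were chosen by their place in the clock and by values already measured in these hearts. Their differences between genotypes are therefore given as a description, and their place under the call rule is not read as a test. All 10 were found among the 54532 genes of the count table, and all 10 passed the filter on low counts that left 19372 genes for testing. RNA was sequenced from 3 *Smyd1-KO* and 3 wild-type (WT) hearts at embryonic day 9.5. *Smyd1* encodes a histone methyltransferase of striated muscle, and the knockout is constitutive. The sources used here do not say whether the RNA of a library came from a single heart or from pooled hearts. Each library is called a heart below. The sources used here do not give the time of day at which the hearts were dissected.

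The clock is a feedback loop of transcription. CLOCK and ARNTL (BMAL1) form a dimer that binds E-boxes and drives *Per*, *Cry*, *Nr1d*, *Dbp* and *Bhlhe40/41*, whose protein products act back on it: PER and CRY inhibit the dimer, DEC1 (*Bhlhe40*) and DEC2 (*Bhlhe41*) compete for E-boxes, and the REV-ERB receptors (*Nr1d1*, *Nr1d2*) repress *Arntl* through elements at which ROR receptors (*Rora*) activate it. In the adult heart this loop times metabolic and electrical genes, whereas in early embryos it is generally found not to oscillate, and *Bhlhe40* and *Bhlhe41* are also known to respond to low oxygen.

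Total counts were 48627825, 60407307 and 58352183 in *Smyd1-KO* hearts 1, 2 and 3, and 60298758, 62485097 and 64217529 in WT hearts 1, 2 and 3. Levels are given as CPM, read counts per 1000000 counts on tested genes, scaled with TMM factors, which correct for differences in library composition. Fold changes are log2 values of *Smyd1-KO* over WT from edgeR's quasi-likelihood fit to all tested genes. A gene was called when its Benjamini-Hochberg adjusted *P* was under 0.05 and its log2 fold change was 0.5 or more in either direction. By this rule 830 genes (4.28%) were called, of which 555 (2.86%) were higher and 275 (1.42%) lower in *Smyd1-KO* hearts. Leaving out 1 heart moved this count in each case, to 1256, 248 and 344 without *Smyd1-KO* hearts 1, 2 and 3, and to 501, 97 and 171 without WT hearts 1, 2 and 3. The median log2 fold change of all tested genes was -0.003.

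The targeted gene *Smyd1* had levels of 101, 222 and 206 CPM in the 3 *Smyd1-KO* hearts, in the order of their numbers, against 414, 379 and 270 CPM in the WT hearts. Every *Smyd1-KO* heart lay below every WT heart, as the labels require, but reads remained in the knockout. Which exons are missing from the allele was not analysed here. The log2 fold change was -1.01 (SE 0.300), with an adjusted *P* of 0.0973 by edgeR. It lay between -1.20 and -0.73 when 1 heart was left out. DESeq2 called *Smyd1* lower, with an adjusted *P* of 0.00538. An exact two-sided permutation test of the CPM gave *P* = 0.10, the smallest that 3 against 3 hearts allow.

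Marker genes of the cell types that such a dissection can hold set some hearts apart. The 15 cardiomyocyte markers, of which *Actc1* was the most abundant, summed to 10342, 21576 and 21642 CPM in the *Smyd1-KO* hearts and to 23080, 21181 and 13598 CPM in the WT hearts. *Smyd1-KO* heart 1 was therefore the lowest, followed by WT heart 3. Of the 15 genes edgeR called 0 (2 had an unadjusted *P* under 0.05), and DESeq2 called 1 higher in *Smyd1-KO* hearts. With edgeR, 2 were called higher without *Smyd1-KO* heart 1 and 1 higher with no filter on low counts. Fold changes were negative for 11 of the 15 and positive for 4, with a median of -0.12. The largest fold change of the list, 1.44 (SE 0.400), was that of *Nppa*, which overlapped between genotypes and was not called with all 6 hearts. *Myh6* was the only marker without overlap, lower in *Smyd1-KO* hearts at -0.71 (SE 0.281), and was not called with all 6 hearts either. In bulk hearts, fewer cells of a type and less RNA per cell cannot be told apart. The 3 tested neural markers summed to 42.1 CPM in *Smyd1-KO* heart 1 and to between 5.38 and 8.14 CPM in the other 5 hearts, with *Tubb3* the most abundant in WT hearts. *Sox1*, a neural progenitor gene too uneven to be tested, had 1453 counts in *Smyd1-KO* heart 1 and 2 to 12 counts elsewhere. The 8 cushion and mesenchyme markers, led in WT hearts by *Twist1*, summed to 3804 CPM in *Smyd1-KO* heart 3, against 1196 and 687 CPM in the other *Smyd1-KO* hearts and 512 to 807 CPM in WT hearts. The markers of this list did not rise together in *Smyd1-KO* heart 3. *Col1a1*, *Col3a1*, *Col1a2* and *Postn* were highest there, at 1431, 792, 690 and 618 CPM, while *Twist1*, at 155 CPM, lay inside the WT range and *Prrx1*, at 18.8 CPM, was at its lowest. Neither the neural nor the cushion list had a called gene (1 neural and 5 cushion genes had an unadjusted *P* under 0.05, and DESeq2 called 1 and 0). With edgeR, 1 neural gene was called without *Smyd1-KO* heart 3 and 2 with no filter on low counts.

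Blood markers separated the genotypes. The 10 erythroid markers, led by the embryonic globin *Hba-x*, summed to 28.4, 284 and 165 CPM in the *Smyd1-KO* hearts and to 752, 1003 and 962 CPM in the WT hearts. All 10 had negative fold changes, and 2 of them fell past the call rule, among them the heme synthesis gene *Alas2* (-2.19, SE 0.463, adjusted *P* = 0.0428 by edgeR). DESeq2 called 7 of the 10, and edgeR with no filter on low counts called 6. The number of erythroid calls by edgeR was 9 without *Smyd1-KO* heart 1, 1 without WT heart 1, and 0 without *Smyd1-KO* heart 3, WT heart 2 or WT heart 3. Among 7 epicardial and proepicardial markers *Krt19*, the most abundant, rose by 1.75 (SE 0.267, adjusted *P* = 0.0173 by edgeR), a call lost without *Smyd1-KO* heart 2, WT heart 2 or WT heart 3. DESeq2 and edgeR with no filter on low counts each called 3 of the 7, and edgeR called 4 without *Smyd1-KO* heart 1. The list summed to 285, 456 and 481 CPM in the *Smyd1-KO* hearts and 213, 172 and 194 CPM in the WT hearts. Within *Smyd1-KO* heart 1 its markers were split. *Krt19*, *Aldh1a2* and *Upk3b*, at 129, 32.6 and 32.9 CPM, lay above every WT heart. *Tbx18*, *Tcf21* and *Sema3d*, at 22.6, 19.8 and 18.1 CPM, lay below every WT heart, and *Wt1*, at 29.3 CPM, lay inside the WT range. The 10 endothelial and endocardial markers, led by *Kdr*, summed to 765, 911 and 1163 CPM in *Smyd1-KO* and 874, 928 and 757 CPM in WT hearts, and edgeR called 0 of them (5 had an unadjusted *P* under 0.05, DESeq2 called 3, and edgeR called 2 without *Smyd1-KO* heart 1 and, with no filter on low counts, 1 higher and 2 lower). Foregut and liver markers, led by *Sox2*, summed to 128, 48.1 and 82.0 CPM in *Smyd1-KO* and 19.0, 52.0 and 61.9 CPM in WT hearts. *Sox2* was at 81.3, 32.8 and 8.51 CPM in the *Smyd1-KO* hearts, highest in heart 1, which had the high neural markers. *Afp* was at 9.67, 0.034 and 48.0 CPM in the same hearts. The members thus differed in their order over hearts, and the sum is not read as a measure of foregut tissue. Macrophage markers were near 0: the 2 tested genes, led by *Cd68*, summed to 2.30, 2.86 and 3.64 CPM in *Smyd1-KO* and 3.26, 3.97 and 4.52 CPM in WT hearts, and *Ptprc*, *Cx3cr1*, *Adgre1*, *Aif1* and *Itgam* had at most 11 counts in any heart. Neither of these last lists had a called gene with edgeR or DESeq2 (0 and 1 at an unadjusted *P* under 0.05).

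The activators were similar in both genotypes. *Clock*, which encodes a subunit of the activating dimer, was found at 30.6, 31.4 and 31.4 CPM in the *Smyd1-KO* hearts and at 29.3, 34.6 and 35.1 CPM in the WT hearts. The knockout values fell inside the WT range, and the log2 fold change was -0.08 (SE 0.0977). *Arntl*, its partner, was at 5.31, 5.85 and 5.75 CPM against 6.16, 6.17 and 6.67 CPM. Each *Smyd1-KO* heart lay below each WT heart by a small margin, with a log2 fold change of -0.17 (SE 0.141), which was not past the call rule. Of all tested genes 6068 (31.3%) likewise had no overlap between the genotypes, and 4 of the 10 clock and DEC genes did.

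The period and cryptochrome inhibitors overlapped between genotypes. *Per1* was at 44.0, 44.4 and 40.6 CPM in the *Smyd1-KO* hearts and at 32.3, 41.0 and 35.4 CPM in the WT hearts. The difference of 0.25 (SE 0.107) on the log2 scale left *Smyd1-KO* heart 3 below WT heart 2. *Per2* lay between 11.6 and 14.3 CPM in *Smyd1-KO* and between 11.8 and 13.6 CPM in WT hearts, a log2 fold change of 0.07 (SE 0.133). *Cry1* was at 40.9, 31.4 and 29.2 CPM against 32.3, 30.6 and 32.1 CPM. Its highest value belonged to *Smyd1-KO* heart 1, the heart with the low cardiomyocyte and high neural markers. The log2 fold change of *Cry1* was 0.09 (SE 0.134) with that heart and -0.06 without it.

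The nuclear receptors did not move together. *Nr1d1*, which encodes REV-ERB alpha, was at 6.09, 6.50 and 6.01 CPM in the *Smyd1-KO* hearts and at 6.34, 4.68 and 4.70 CPM in the WT hearts. WT heart 1 lay among the knockouts, and the log2 fold change was 0.24 (SE 0.177), or 0.41 without WT heart 1. *Nr1d2*, which encodes REV-ERB beta, was at 18.8, 16.3 and 13.5 CPM against 13.9, 13.9 and 14.9 CPM. Its log2 fold change was 0.18 (SE 0.144), with 0.06 without *Smyd1-KO* heart 1 and 0.30 without *Smyd1-KO* heart 3. *Rora*, which encodes the ROR receptor that opposes REV-ERB at shared elements, was at 28.2, 33.2 and 32.9 CPM in the *Smyd1-KO* hearts and at 7.42, 7.07 and 7.19 CPM in the WT hearts. The lowest knockout heart was far above the highest WT heart, and the hearts of each genotype were tightly grouped. The mean was 31.4 ± 2.82 CPM (SD, n = 3) in *Smyd1-KO* and 7.23 ± 0.176 CPM (SD, n = 3) in WT hearts, a ratio of 4.35 and a log2 fold change of 2.12 (SE 0.111). Without *Smyd1-KO* heart 1 it was 2.19.

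Both DEC repressors were higher in *Smyd1-KO* hearts. *Bhlhe40* was at 94.9, 91.8 and 100.1 CPM in the *Smyd1-KO* hearts and at 16.6, 13.1 and 10.5 CPM in the WT hearts. All knockout values were far above all WT values, and the knockout values were close to each other. The cardiomyocyte marker sum of the same hearts ran from 10342 to 21642 CPM, and its part in the level of *Bhlhe40* was not tested. The mean was 95.6 ± 4.16 CPM (SD, n = 3) against 13.4 ± 3.08 CPM (SD, n = 3), a ratio of 7.14 and a log2 fold change of 2.84 (SE 0.167), and 2.84 without *Smyd1-KO* heart 1. *Bhlhe41* was at 49.5, 36.6 and 33.9 CPM in the *Smyd1-KO* hearts and at 8.07, 8.95 and 13.5 CPM in the WT hearts. *Smyd1-KO* heart 1 was the highest here, and the groups again did not overlap. Means were 40.0 ± 8.32 and 10.2 ± 2.89 CPM (SD, n = 3 each), a ratio of 3.94. The log2 fold change of *Bhlhe41* was 1.98 (SE 0.233), and 1.80 without *Smyd1-KO* heart 1. Without WT heart 2 it was 1.89 and no longer past the call rule.

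In all, 3 of the 10 genes were past the call rule and higher in *Smyd1-KO* hearts (*Rora*, *Bhlhe40* and *Bhlhe41*), where 2.86% of all tested genes were, and 0 were past it and lower, where 1.42% were. Without WT heart 2 the count was 2, as *Bhlhe41* fell out. Since the genes were selected on values of this contrast, nothing is read from these counts and shares. The lower erythroid and higher epicardial marker sums accompany the same comparison in all 3 *Smyd1-KO* hearts, and their part in it was not tested. Single epicardial markers were not all higher in *Smyd1-KO* heart 1.

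**Figure D1:**
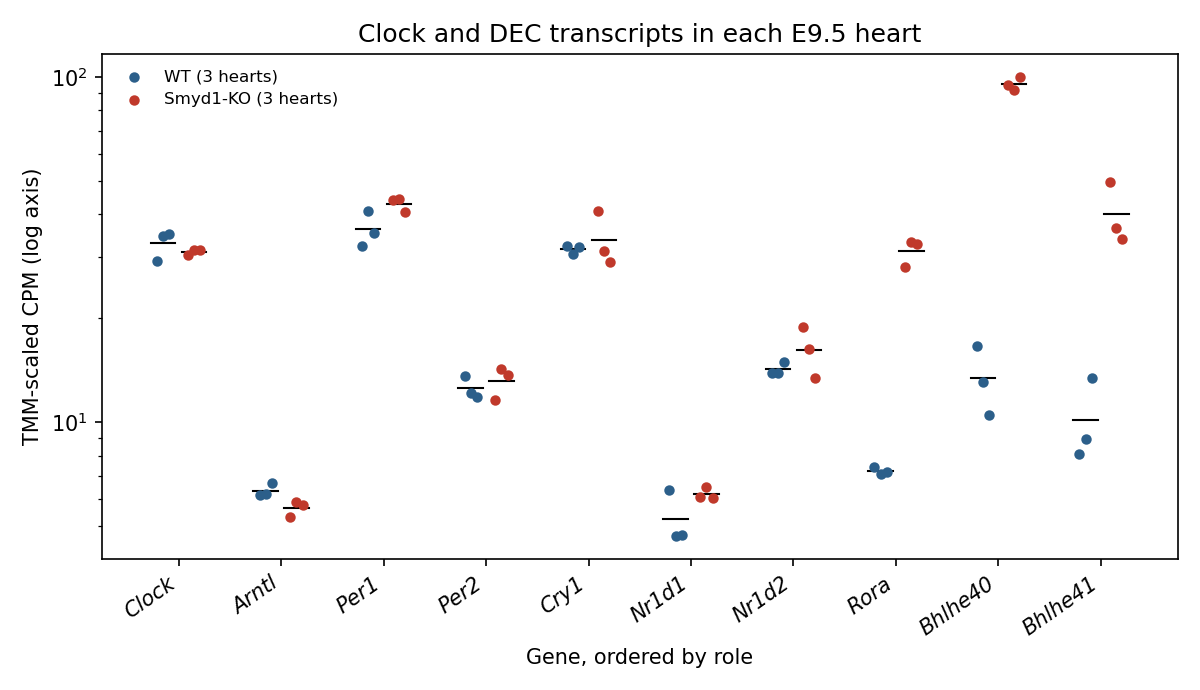
TMM-scaled CPM of the 10 clock and DEC genes on a log axis, with 1 point per heart (WT blue, *Smyd1-KO* red, 3 hearts each) and a black bar at each mean. *Rora*, *Bhlhe40* and *Bhlhe41* separate widely, *Arntl* separates narrowly with the *Smyd1-KO* hearts lower, and the other 6 genes overlap.

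Levels of different genes were compared per kilobase of exonic length. In WT hearts *Cry1* was the most abundant of the 10 at 9.48 ± 0.270 CPM per kb (SD, n = 3), followed by *Per1* at 6.44 ± 0.782. *Bhlhe40* (2.85 ± 0.655), *Nr1d2* (2.63 ± 0.109), *Clock* (2.40 ± 0.236), *Per2* (2.14 ± 0.159), *Nr1d1* (1.70 ± 0.311) and *Bhlhe41* (1.51 ± 0.430) formed a middle group, and *Arntl* (0.842 ± 0.0383) and *Rora* (0.553 ± 0.0135) were lowest. Within the middle group, the 3 WT values of neighbours in this order overlapped except for *Nr1d2* and *Clock*. *Cry1* and *Per1*, *Per1* and *Bhlhe40*, *Bhlhe41* and *Arntl*, and *Arntl* and *Rora* did not overlap. With the longest transcript as the length, *Nr1d2* (3.05) and *Clock* (3.39) changed places and overlapped, *Nr1d2* and its next neighbour *Per2* did not overlap, and *Arntl*, at 1.54 to 1.67 CPM per kb, lay inside the 1.32 to 2.19 of *Bhlhe41*. In *Smyd1-KO* hearts the order began with *Bhlhe40* at 20.3 ± 0.884 CPM per kb, ahead of *Cry1* at 10.1 ± 1.86 and *Per1* at 7.63 ± 0.375. Next came *Bhlhe41* at 5.95 ± 1.24, and *Rora*, at 2.40 ± 0.216, was level with *Clock* at 2.27 ± 0.0362. The exonic lengths are 13071 bases for *Rora* and 13727 for *Clock*, and the longest transcripts 10878 and 9744 bases. The order of *Rora* and *Clock* thus depends on the length used. The repressor *Bhlhe40* was thus below *Cry1* and *Per1* per length in WT hearts and above both in *Smyd1-KO* hearts, while *Arntl* was among the lowest in both, at 0.749 ± 0.0385 in *Smyd1-KO*.

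Spread between hearts of a genotype was set against the 500 tested genes nearest in mean expression. *Arntl* varied least, with a within-genotype SD of 0.0698 on the log2 scale, at percentile 1.8 of its 500 neighbours. *Rora* (14.6), *Nr1d1* (29.2), *Per2* (30.0) and *Clock* (31.8) were also below the middle of their neighbours. *Nr1d2* (55.0), *Per1* (58.0) and *Cry1* (65.2) were a little above it. The DEC genes varied most, *Bhlhe40* at percentile 82.6 with an SD of 0.239, and *Bhlhe41* at percentile 86.8 with an SD of 0.342. The SD pools both genotypes, and the neighbours were matched on the mean over all hearts. For *Bhlhe40* the spread lay mostly in the WT hearts, at 10.5 to 16.6 CPM, against 91.8 to 100.1 CPM in *Smyd1-KO* hearts. With 3 hearts a genotype each SD is imprecise, and the percentiles are a description.

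Beyond these genes, 54 others of the clock pathway were examined in 5 lists, and all 54 were tested. Of these, 6 rose (11.1%, against 2.86% of all tested genes) and 1 fell (1.85%, against 1.42%), with a median log2 fold change of -0.02. These lists were drawn up with earlier results of the same hearts known. Without *Smyd1-KO* heart 1 the counts were 7 and 2, and the call of the falling gene was lost without *Smyd1-KO* heart 2 or 3 or any one of the WT hearts.

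Of 9 other core clock genes, *Ciart* (CHRONO), a repressor of the CLOCK and ARNTL dimer, was the only one called. It was at 26.3, 32.1 and 29.9 CPM in the *Smyd1-KO* hearts and at 10.2, 10.4 and 10.9 CPM in the WT hearts. The groups were far apart, and *Ciart* rose by 1.49 (SE 0.112, adjusted *P* = 0.00144 by edgeR), a call made whichever heart was left out. The remaining period and cryptochrome genes were not called: *Per3* had a log2 fold change of 0.13 (SE 0.139) and *Cry2* of 0.13 (SE 0.0858). *Npas2*, which can stand in for *Clock*, lay under 1 CPM in every heart, with a log2 fold change of -0.82 (SE 0.472). *Arntl2* (-0.40), *Rorb* (-0.27), *Timeless* (0.04) and *Tipin* (-0.03) were not called either, and the list's median was 0.01.

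Among the 4 D-box factors, bZIP proteins under clock control, all had positive fold changes with a median of 0.80. *Dbp*, a classical target of the activating dimer, was at 14.5, 16.1 and 14.8 CPM in the *Smyd1-KO* hearts and at 5.35, 5.56 and 3.83 CPM in the WT hearts. It rose by 1.63 (SE 0.176, adjusted *P* = 0.00627 by edgeR), with every knockout heart above every WT heart. *Tef*, a second activator of D-boxes, rose by 0.97 (SE 0.0968, adjusted *P* = 0.00465 by edgeR), from a WT mean of 28.1 to a *Smyd1-KO* mean of 55.0 CPM. Both were called whichever heart was left out. *Hlf*, the remaining activator, had a log2 fold change of 0.63 (SE 0.345), and *Nfil3*, the D-box repressor, of 0.30 (SE 0.136); neither was called.

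The machinery that modifies clock proteins showed no called gene. Of 14 kinases, ubiquitin ligases and deubiquitinases that set the stability of clock proteins, 0 were called by edgeR (4 had an unadjusted *P* under 0.05, and DESeq2 called 1), with a median of -0.05. The largest fold change, 1.29 (SE 0.350, adjusted *P* = 0.0773 by edgeR), was that of *Fbxl21*, a cryptochrome ligase subunit at 0.699 to 1.05 CPM in *Smyd1-KO* and 0.235 to 0.520 CPM in WT hearts. Of 13 coregulators, edgeR and DESeq2 called 0 (4 had an unadjusted *P* under 0.05 by edgeR), with a median of -0.09. *Sfpq*, an RNA-binding partner of the PER complex, was lower in every *Smyd1-KO* heart, at 572, 585 and 552 against 785, 817 and 815 CPM. Its log2 fold change of -0.50 (SE 0.0808, adjusted *P* = 0.0199 by edgeR) lay just short of the fold limit, and *Sfpq* was called without *Smyd1-KO* heart 1 (-0.50) or WT heart 1 (-0.51).

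Of 14 clock output genes, 3 rose and 1 fell. *Nampt*, the rate-limiting enzyme of NAD salvage, was at 237, 198 and 185 CPM in the *Smyd1-KO* hearts and at 87.8, 79.6 and 95.7 CPM in the WT hearts. It rose by 1.24 (SE 0.120, adjusted *P* = 0.00408 by edgeR), and stayed past the rule whichever heart was left out. *Klf15*, a Krüppel-like factor that links the clock to cardiac metabolism and rhythm, rose by 0.84 (SE 0.164, adjusted *P* = 0.0347 by edgeR), from 8.78 to 12.3 CPM in WT to 16.8 to 19.3 CPM in *Smyd1-KO* hearts. The nuclear receptor *Ppard* rose by 0.57 (SE 0.102, adjusted *P* = 0.0274 by edgeR). *Coq10b*, which encodes a coenzyme Q binding protein, was at 5.33, 7.24 and 7.57 CPM against 13.2, 11.1 and 11.1 CPM and fell by 0.81 (SE 0.178, adjusted *P* = 0.0460 by edgeR). These last 3 calls were less firm: with each heart left out in turn *Klf15* was called 2 of 6 times, at 0.76 to 1.02, and *Ppard* (0.53 to 0.65) and *Coq10b* (-0.91 to -0.67) 1 of 6 times. *Klf15* lost its call without *Smyd1-KO* heart 2 or 3 or WT heart 2 or 3, and the other 2 genes lost it without any of these or WT heart 1. The other 10 outputs, including *Wee1*, *Noct* and *Ppargc1a*, were not called by edgeR with all 6 hearts. DESeq2, and edgeR without *Smyd1-KO* heart 1, called 4 outputs higher.

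**Figure D2:**
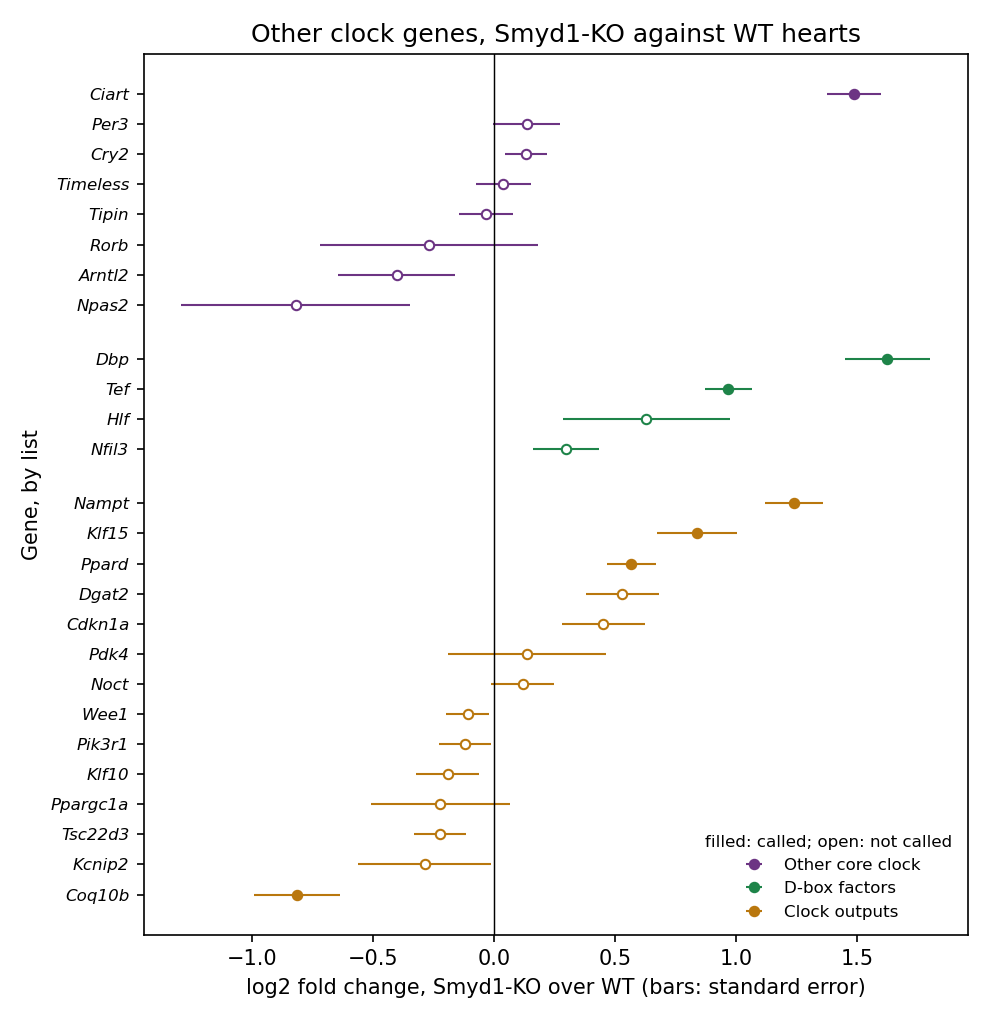
Log2 fold change of *Smyd1-KO* over WT hearts (3 each) from edgeR for 26 of the 27 tested genes of 3 other clock lists (1 is not shown), with bars of 1 standard error and filled points for called genes. *Ciart*, *Dbp*, *Tef*, *Nampt*, *Klf15* and *Ppard* lie to the right as called genes and *Coq10b* to the left.

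The DEC proteins belong to the bHLH-Orange family with the HES and HEY repressors, of which 7 of 10 could be tested. None was called by edgeR or DESeq2 (1 had an unadjusted *P* under 0.05), and the largest fold change, 3.30 (SE 1.28) for *Hes5*, rested on *Smyd1-KO* heart 1, at 4.34 CPM against 0.101 to 0.237 CPM in the other 5 hearts. Without that heart it was 0.33, and 1 gene of the list was called. *Hey1* was the most abundant, with a log2 fold change of 0.01 (SE 0.142). CLOCK and ARNTL belong to the bHLH-PAS family, of which 10 of 12 relatives could be tested. *Hif1a*, the oxygen-regulated subunit of HIF-1, was at 146, 155 and 136 CPM in the *Smyd1-KO* hearts and at 224, 221 and 214 CPM in the WT hearts, and fell by 0.59 (SE 0.0804, adjusted *P* = 0.0123 by edgeR). Its call was lost without WT heart 2 or 3. *Hif3a* rose by 1.18 (SE 0.215, adjusted *P* = 0.0288 by edgeR), a call kept only without *Smyd1-KO* heart 1 among the fits that left out 1 heart. DESeq2 called 3 genes of this list higher, and edgeR called 2 with no filter or with at least 10 counts in every heart.

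Genes known to be induced through HIF were described beside the DEC genes, which are known HIF targets themselves. All 15 (*Vegfa*, *Slc2a1*, *Pgk1*, *Ldha*, *Bnip3*, *Egln3*, *Egln1*, *Car9*, *Adm*, *Ankrd37*, *Ndrg1*, *Pdk1*, *Ddit4*, *P4ha1* and *Kdm3a*) rose, with log2 fold changes of 0.62 to 3.82 and a median of 1.62, where 2.86% of all tested genes rose. The list was chosen with earlier results of these hearts known and is not independent evidence of its direction. Between 8 and 15 of them were called when 1 heart was left out, with the count of 8 without WT heart 2 and 10 without WT heart 3. Their summed level was 11076, 12297 and 12294 CPM in the *Smyd1-KO* hearts and 6446, 5098 and 5099 CPM in the WT hearts. The part that this response has in the levels of *Bhlhe40* and *Bhlhe41* was not tested.

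The genes whose pattern over the 6 hearts was most like that of *Bhlhe40* were found by the root mean square difference of log2 CPM after centring each gene on its own mean. Among all tested genes the 5 nearest were *Tmem74b* (0.190), *Ddit4* (0.208), *H2-Ab1* (0.226), *Stc2* (0.229) and *Dpp6* (0.259). *Ddit4*, which encodes an inhibitor of mTORC1, was at 607, 540 and 518 CPM in the *Smyd1-KO* hearts and at 76.0, 63.2 and 70.9 CPM in the WT hearts. *Stc2*, a secreted glycoprotein gene, was at 85.0, 111 and 96.4 CPM against 12.6, 12.4 and 12.2 CPM. All 5 were, like *Bhlhe40*, higher in each knockout heart than in any WT heart, which follows from how they were picked. *Bhlhe41* and *Rora* were not among them.

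The genes lie on several chromosomes in the GRCm38 build and are all annotated as protein-coding. *Bhlhe40* (chr6:108660629-108666925, plus strand) and *Bhlhe41* (chr6:145858243-145865558, minus strand) are on one chromosome but far apart, and *Rora* spans chr9:68653786-69388246 on the plus strand. Because the strand setting of the counting is not given in the sources used here, reads of genes on opposite strands cannot be told apart where their exons overlap. The exons of *Bhlhe41* share 1280 bases with *Gm43909* on the other strand, which had 92, 43 and 48 counts in the *Smyd1-KO* hearts and 14, 17 and 15 in the WT hearts, against 1937 to 2406 and 481 to 896 counts for *Bhlhe41*. *Gm43909* was thus far below *Bhlhe41* and higher in the same hearts. *Nr1d1* shares 263 exonic bases with *Thra*, the thyroid hormone receptor gene, which had 2354 to 5477 counts against 296 to 384 counts for *Nr1d1*. *Bhlhe40* shares 118 bases with *0610040F04Rik*, which had at most 7 counts in any heart. *Rora* shares 82 bases with *Gm15511* and *Arntl* 33 bases with *Gm45355*, each of which had at most 5 counts in any heart.

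Promoter windows of 300 bases, from 250 before to 50 after the start of transcription, were taken from RefSeq in the GRCm38.p6 build for 8 of the 10 genes (12 windows). *Per2* and *Bhlhe40* had no entry. Each was searched on both strands for the E-box CACGTG, the D-box TTATGTAA or TTACGTAA, the REV-ERB and ROR element AGGTCA, and the hypoxia response core ACGTG, which is contained in the E-box. Over all 32851 windows, 7.15% held the E-box, 1.06% the D-box, 16.3% the REV-ERB and ROR element and 19.6% the hypoxia core. Of the 8 genes, *Per1*, *Cry1* and *Bhlhe41* had an E-box in a window and none had the D-box. *Clock*, *Arntl*, *Per1* and *Nr1d2* had the letters AGGTCA. The hypoxia core was found in 5, and it stood outside an E-box in *Rora*, in *Nr1d1* and, beside its E-box, in *Cry1*. A match is a description of the letters, searched without flanking bases, and not a full element or a bound site.

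The 7 called genes of the clock pathway lists all had windows, and the E-box was present for *Ciart*, *Tef*, *Klf15* and *Coq10b*. *Ciart* and *Klf15* each had 3 E-boxes in a single window. The hypoxia core was present for all 7, and outside an E-box for *Dbp*, *Nampt* and *Ppard*. *Coq10b*, the gene that fell, also had the only D-box.

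The windows of the DEC gene and the receptor gene that were higher in *Smyd1-KO* hearts, of a cryptochrome gene with an E-box that was not called, and of the called repressor *Ciart* are given 5′ to 3′ on the strand of the gene, with matches to any of the motifs in capitals. *Bhlhe41* is at chr6:145865371-145865670 (minus strand), with its E-box starting 153 bases before the start of transcription. *Rora* is at chr9:68653536-68653835 (plus strand), with the core on the reverse strand. *Cry1* is at chr10:85185005-85185304 (minus strand), with an E-box 60 bases before the start and a core of its own 78 bases before it. *Ciart* is at chr3:95882179-95882478 (minus strand), with E-boxes 116, 58 and 44 bases before the start.
Bhlhe41: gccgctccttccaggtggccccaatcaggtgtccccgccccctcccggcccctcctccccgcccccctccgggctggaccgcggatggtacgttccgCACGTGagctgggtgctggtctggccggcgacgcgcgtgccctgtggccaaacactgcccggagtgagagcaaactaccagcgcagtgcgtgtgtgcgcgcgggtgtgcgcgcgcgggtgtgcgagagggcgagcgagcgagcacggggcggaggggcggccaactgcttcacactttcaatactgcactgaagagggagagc
Rora: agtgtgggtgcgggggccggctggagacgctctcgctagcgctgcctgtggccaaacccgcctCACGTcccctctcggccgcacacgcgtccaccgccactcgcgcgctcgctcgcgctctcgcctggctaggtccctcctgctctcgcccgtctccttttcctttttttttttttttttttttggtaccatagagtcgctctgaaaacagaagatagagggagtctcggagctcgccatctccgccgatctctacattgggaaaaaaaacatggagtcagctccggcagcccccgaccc
Cry1: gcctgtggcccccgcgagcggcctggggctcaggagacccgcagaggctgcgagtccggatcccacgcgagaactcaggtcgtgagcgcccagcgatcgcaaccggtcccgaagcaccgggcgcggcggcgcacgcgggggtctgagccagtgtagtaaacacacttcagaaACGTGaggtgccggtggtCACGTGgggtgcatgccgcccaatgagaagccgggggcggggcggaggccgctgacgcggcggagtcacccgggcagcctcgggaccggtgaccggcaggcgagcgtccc
Ciart: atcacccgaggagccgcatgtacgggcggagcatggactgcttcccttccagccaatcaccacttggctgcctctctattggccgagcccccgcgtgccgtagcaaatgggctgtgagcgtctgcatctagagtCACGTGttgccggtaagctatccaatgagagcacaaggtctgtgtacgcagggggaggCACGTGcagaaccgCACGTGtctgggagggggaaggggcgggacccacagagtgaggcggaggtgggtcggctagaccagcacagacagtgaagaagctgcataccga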

How the data were processed

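RNA-seq libraries of 3 *Smyd1-KO* and 3 WT hearts were compared, grouped by the labels. The authors sequenced poly A RNA as paired-end reads and aligned it to mm10 with STAR, run within the bcbio-nextgen pipeline. The deposited counts are whole numbers per gene without normalization. The counting tool, annotation and strand setting are not given in the sources used here. The deposited normalized table was not used. Counts were fitted with edgeR 4.0.16 in R 4.3.3 (filterByExpr, TMM, quasi-likelihood test, Benjamini-Hochberg adjustment over 19372 genes), after a trial on simulated data. A standard error is the log2 fold change divided by the square root of F, and log2 CPM used a prior count of 2. Depth of 48627825 to 64217529 counts makes counting error small for all but the lowest genes; the biological coefficient of variation was 22.5%. Exonic lengths and positions came from GENCODE (GRCm38), in which 54495 gene IDs matched. Tables were made in Python 3.11.15 with pandas 2.3.3.

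The members and lists were chosen with earlier results of these data known. Named genes are the 10 members, *Smyd1*, called genes or otherwise the largest change of each list, antisense overlaps, the 5 genes nearest to *Bhlhe40*, and the most abundant and called markers; *Sfpq*, *Sox1* and the other uncalled genes were named after their values were seen, and some genes of the lists are not reported here by name. Alternatives were DESeq2 1.42.0, RLE or upper-quartile factors, leaving out mitochondrial and haemoglobin genes, no filter, at least 10 counts in every heart, no fold limit, a replicate block, each heart left out, and the longest transcript as length.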

Additional observations from a re-analysis of the deposited data

How the results depend on the processing

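The 10 clock and DEC genes were chosen on values of this contrast, so their values under the alternatives are a description only. Log2 fold changes lay between 2.69 and 3.03 for *Bhlhe40*, 2.08 and 2.19 for *Rora* and 1.80 and 2.24 for *Bhlhe41* over all settings. *Bhlhe41* was not past the call rule without WT heart 2 or with a replicate block, which left 2 of the 10 past it. Of the 10 only *Cry1* changed sign. DESeq2 called 1747 genes, 1126 higher and 621 lower, and called *Smyd1* at -1.001. Leaving out 1 heart gave 97 to 1256 called genes, 89 to 809 higher and 8 to 447 lower, with 4 to 7 clock pathway genes higher and 0 to 2 lower. Leaving out mitochondrial and haemoglobin genes, asking for at least 10 counts in every heart, or setting no fold limit raised the clock pathway genes called lower from 1 to 2. The labels do not pair hearts of the same number. The deviations of such hearts from the genotype mean correlated at -0.216, -0.054 and -0.182. A shared litter or batch is not given in the sources used here and was not tested. With the number as a replicate block 59 genes were called, 56 higher and 3 lower, and 1 clock pathway gene higher and 0 lower. With the longest transcript as length, 7 of the 10 WT levels moved by over 1 SD. The causes of these differences between settings were not tested. Groups of 3 hearts limit the precision of genes under about 1 CPM most, and time of dissection, strand and cell composition could not be separated from these values.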
